A study of Mus musculus with 24 samples.

Results

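The 9 genes described here carry vitamin A through its uptake, its conversion to retinoic acid (RA) and the binding of RA inside the cell. They were taken by symbol from the 26264 genes of a count table of mouse embryonic stem cells (ESCs), and all 9 were found there: *Stra6*, *Rbp4*, *Rdh10*, *Rdh11*, *Aldh1a1*, *Aldh1a2*, *Aldh1a3*, *Crabp1*, and *Crabp2*. The rule used the symbols and no measured value, but the members were chosen with earlier results of these data known.

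Polyadenylated RNA was sequenced from 2 ESC lines, BAP1-AID and UTX-AID, in which an HA-AID tag had been added to the C terminus of BAP1 or to the N terminus of UTX and TIR1 was stably overexpressed. The auxin IAA lets TIR1 recognize the tag, and the tagged protein is then degraded. Each line was studied without IAA (−IAA) and after IAA pretreatment (+IAA), with RA for 0, 3, or 6 h, which makes 12 groups of 2 replicates and 24 libraries. The comparisons address whether the genes responded to RA and whether the 2 lines differed. They also address whether IAA, given to degrade BAP1 or UTX, was followed by altered levels or an altered response. Both lines are single clones, so the tagged gene and the clone cannot be told apart. ESCs were cultured in serum with leukemia inhibitory factor, and RA was given without this factor. The effect of RA therefore cannot be told apart from that of withdrawing the factor. The medium of the cells at 0 h is not described separately. IAA was dissolved in ethanol, and whether −IAA cells received ethanol is not given in the sources used here. No untagged line with IAA is among these libraries, so loss of the tagged protein cannot be told apart from other effects of IAA.

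Vitamin A travels in blood as retinol bound to RBP4, the product of *Rbp4*, and STRA6 is a membrane receptor that takes up retinol from this carrier. Retinol dehydrogenases such as RDH10 oxidize retinol to retinaldehyde, and RDH11 is mainly known as an enzyme that reduces retinaldehyde back to retinol. The aldehyde dehydrogenases ALDH1A1, ALDH1A2, and ALDH1A3 oxidize retinaldehyde to RA. CRABP2 passes RA to the nuclear RA receptors, and CRABP1 holds RA in the cytoplasm. In ESCs, RA bound to its receptors drives exit from self-renewal, and *Stra6* was named as a gene stimulated by RA.

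*Stra6* was the member with the strongest RA response, and 2 of its RefSeq promoter windows are printed because they differ in whether they hold a receptor half-site. *Stra6* lies on chromosome 9 of GRCm39 from 57970967 to 58063543 on the plus strand, and its longest annotated transcript has 19 exons. Each window spans an annotated RefSeq start, most of it upstream. All 4 *Stra6* windows lie inside the gene as annotated, from 58036121 to 58041997, so its outermost start at 57970967 was not searched. Which start these cells use was not tested. The windows come from the RefSeq table of GRCm38.p6 and were placed on GRCm39 (mm39) by a single exact match. *Crabp1* is shown beside them as a binding protein whose RA changes did not pass the test in either clone. Capitals mark a half-site of the RA receptor, searched on both strands as AGGTCA or AGTTCA, and further as GGGTCA or the closely related GGTTCA.
Stra6 window 1, chr9:58036121-58036420, plus strand: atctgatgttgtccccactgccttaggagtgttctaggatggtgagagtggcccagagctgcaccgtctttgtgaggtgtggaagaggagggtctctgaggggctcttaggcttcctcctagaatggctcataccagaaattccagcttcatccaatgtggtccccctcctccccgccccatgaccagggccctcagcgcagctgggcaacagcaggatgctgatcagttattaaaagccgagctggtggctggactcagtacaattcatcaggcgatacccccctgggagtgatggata
Stra6 window 3, chr9:58041108-58041407, plus strand: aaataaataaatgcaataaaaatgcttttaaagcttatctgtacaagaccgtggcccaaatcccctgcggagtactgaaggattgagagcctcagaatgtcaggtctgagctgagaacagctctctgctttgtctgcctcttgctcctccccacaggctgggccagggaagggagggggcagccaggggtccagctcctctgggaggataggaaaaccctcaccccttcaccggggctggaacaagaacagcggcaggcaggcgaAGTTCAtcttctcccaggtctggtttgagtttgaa
Crabp1 window, chr9:54671782-54672081, plus strand: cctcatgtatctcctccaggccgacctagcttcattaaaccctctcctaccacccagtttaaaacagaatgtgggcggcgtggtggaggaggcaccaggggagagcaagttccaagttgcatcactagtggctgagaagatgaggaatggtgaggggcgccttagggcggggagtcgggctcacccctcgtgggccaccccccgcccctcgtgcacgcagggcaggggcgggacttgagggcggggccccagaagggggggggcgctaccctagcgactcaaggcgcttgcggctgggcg

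Window 3 of *Stra6* held 1 half-site, AGTTCA on the plus strand, which began 15 bases after the start. The other 3 *Stra6* windows, 2 of which overlap, held none. At least 1 of the 4 half-sites was present in 43.7% of the 32544 promoter windows in the table, so its presence is common. Windows were given for 6 members, some of them with more than 1. Half-sites were also present in window 2 of *Rbp4*, windows 1 and 2 of *Rdh11*, and window 2 of *Aldh1a1*. None was found in window 1 of *Rbp4* and *Aldh1a1* or in the windows of *Crabp1* and *Aldh1a2*. The 43.7% is a share of windows and not of genes. No member window held 2 half-sites as a direct repeat with a spacer of 1, 2, or 5 bases, arrangements that were found in 0.224%, 0.270%, and 0.0983% of all windows. *Crabp2*, *Rdh10*, and *Aldh1a3* were not analysed in this way.

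The libraries held between 42018795 and 54034789 estimated counts. At that depth 3 counts, taken as the smallest detectable amount, equalled 0.0545 to 0.0695 CPM, which are counts scaled to a common library total after TMM normalization, a limit that covers counting error only. The 2 libraries of the −IAA BAP1-AID group at 3 h stood apart from each other more than those of other groups, with a chi-square per gene of 63.7 against 5.81 to 22.6. Of 10 ESC markers, all were detected, and their summed level was 4277 to 5293 CPM in every library. Some ESC markers varied far more than this sum, with *Nanog* at 77.1 to 453.9 CPM and *Zfp42* at 132.7 to 654.1 CPM. *Tdgf1* was steadier, at 541.7 to 715.8 CPM. The summed level of 12 endoderm markers was 22.4 to 36.8 CPM, that of 6 neural markers ran from 119.5 to 140.1 CPM in the BAP1-AID libraries and from 65.7 to 97.2 CPM in the UTX-AID libraries, and that of 7 fibroblast markers was 2.48 to 13.9 CPM. The fibroblast sum was lower at 6 h than at 0 h of RA, at 8.15 to 8.42 against 12.1 to 12.2 CPM in −IAA BAP1-AID and at 3.36 to 4.28 against 6.93 to 7.11 CPM in −IAA UTX-AID, and it was 4.24 to 4.42 CPM in +IAA UTX-AID at 0 h. The endoderm sum was 28.4 to 32.0 CPM at 6 h against 23.0 to 24.5 CPM at 0 h in −IAA BAP1-AID. *Lama1* made up most of the endoderm sum (median 23.4 CPM), and 8 of the 12 markers had a median below 1 CPM. *Dcn* (up to 9.67 CPM) and *Thy1* (up to 5.41 CPM) made up most of the fibroblast sum. There, 5 of the 7 markers had a median below 1 CPM. Both sums therefore rest on few genes. For 6 markers of 2-cell-like cells, the sum ran from 0.746 to 1.89 CPM in the BAP1-AID libraries and from 17.8 to 35.7 CPM in the UTX-AID libraries. The part of these marker levels in the differences with RA, with IAA, and between the clones was not tested.

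Before RA, the 9 genes spanned a wide range of levels in −IAA cells. Per kilobase of exon, *Rdh11* was highest in both clones, at 9.83 ± 1.05 CPM per kb in BAP1-AID and 17.3 ± 1.56 in UTX-AID (SD, n = 2 here and for every later mean). *Crabp2* and *Crabp1* followed, at 7.08 ± 1.79 and 6.17 ± 0.138 CPM per kb in BAP1-AID, where their replicates overlapped, and at 3.73 ± 0.0840 and 4.42 ± 0.191 in UTX-AID. The order of these 2 genes in UTX-AID turned when the longest transcript was used for the length, with 5.30 CPM per kb for each after rounding. *Rdh10* came next, at 1.53 ± 0.0503 and 1.23 ± 0.235 CPM per kb. *Rbp4* and *Aldh1a2* were between 0.116 and 0.208 CPM per kb and overlapped in BAP1-AID. *Stra6* was at 0.0161 ± 0.00951 and 0.0317 ± 0.0239 CPM per kb. *Aldh1a3* was below it and *Aldh1a1* was at 0 in all 4 of these libraries, and in BAP1-AID the replicates of *Stra6* and *Aldh1a3* overlapped.

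*Stra6* rose with RA in both clones, with and without IAA. In −IAA BAP1-AID cells it was at 0.193 and 0.0789 CPM at 0 h (10 and 4 counts), at 2.94 and 2.76 CPM at 3 h, and at 8.12 and 10.4 CPM at 6 h. With IAA the values were 0.0975 and 0.165 CPM at 0 h, 3.78 and 3.85 CPM at 3 h, and 8.80 and 8.32 CPM at 6 h. In neither arm did the 3 time points overlap. The log2 fold change at 6 h was 6.09 ± 0.306 without IAA (standard error, as for every later log2 fold change; adjusted p = 5.91e-08, quasi-likelihood test of edgeR, Benjamini-Hochberg adjusted over all genes) and 6.03 ± 0.309 with IAA (adjusted p = 6.90e-08). These are bulk libraries, so more cells with the transcript and more transcript per cell cannot be told apart.

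In UTX-AID the rise was present by 3 h. Without IAA, *Stra6* was at 0.125 and 0.411 CPM at 0 h (6 and 20 counts), at 4.98 and 2.94 CPM at 3 h, and at 5.14 and 3.61 CPM at 6 h. The values at 3 h and 6 h overlapped, and both were above those at 0 h. With IAA, both libraries at 0 h held 0 counts, which allows up to 0.0587 CPM, and the level was 2.35 and 2.08 CPM at 3 h and 4.39 and 3.98 CPM at 6 h. The log2 fold change without IAA was 3.89 ± 0.442 at 3 h (adjusted p = 5.73e-05) and 4.03 ± 0.441 at 6 h (adjusted p = 2.76e-05). With IAA the level was at least 37.7-fold higher at 3 h (adjusted p = 8.31e-06) and at least 71.3-fold higher at 6 h (adjusted p = 1.19e-06), with 3 counts per library in place of the 0.

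**Figure D1:**
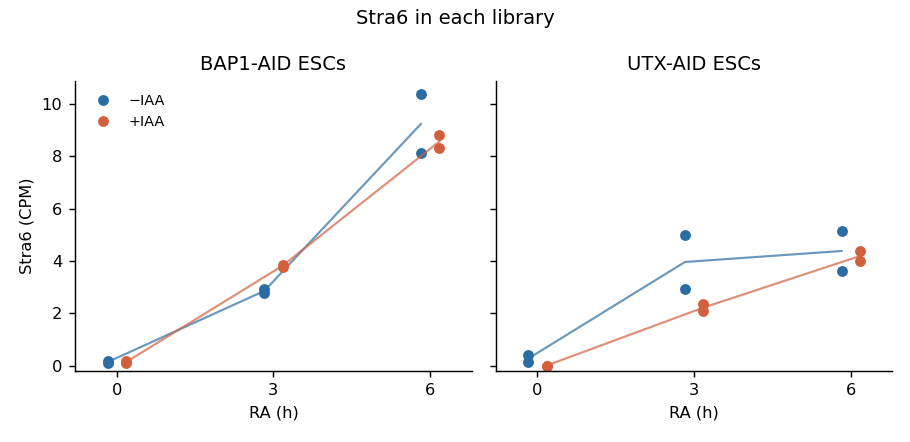
*Stra6* level in CPM (vertical axis) against hours of RA (horizontal axis) in BAP1-AID (left) and UTX-AID (right), with one point per library and lines through the means of the 2 replicates, −IAA in blue and +IAA in orange. All 4 BAP1-AID libraries at 6 h lie between 8.12 and 10.4 CPM, and all 4 UTX-AID libraries at 6 h lie between 3.61 and 5.14 CPM.

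Between 3 and 6 h, *Stra6* rose further in BAP1-AID, by 1.71 ± 0.215 on the log2 scale without IAA (adjusted p = 0.00164) and by 1.16 ± 0.211 with IAA (adjusted p = 0.00777). The call with IAA needed all 4 libraries of the comparison: without either replicate at 3 h or either replicate at 6 h, adjusted p was 0.0518 to 0.0766. In UTX-AID the values over the same interval were 0.14 ± 0.351 without IAA (adjusted p = 0.964) and 0.93 ± 0.358 with IAA (adjusted p = 0.596). The difference between the clones in this late change, BAP1-AID minus UTX-AID without IAA, was 1.55 ± 0.433 (adjusted p = 0.302), and that in the change from 0 to 6 h was 2.05 ± 0.620 (adjusted p = 0.180). The same difference for the change from 0 to 3 h was 0.50 ± 0.619 (adjusted p = 0.949).

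At 6 h without IAA, the level of *Stra6* itself was 9.24 ± 1.59 CPM in BAP1-AID and 4.38 ± 1.08 CPM in UTX-AID, and the replicates did not overlap. The log2 difference was 1.08 ± 0.303 (adjusted p = 0.00469). It was 0.89 (adjusted p = 0.0584) without the second −IAA BAP1-AID library at 6 h and 0.82 (adjusted p = 0.0863) without the second −IAA UTX-AID library at 6 h. A correction for GC content and length gave 0.65 (adjusted p = 0.0807). Before RA, the clones were at 0.136 ± 0.0803 and 0.268 ± 0.202 CPM, with overlapping replicates (log2 difference -0.97 ± 0.543, adjusted p = 0.146). This difference was -1.40 (adjusted p = 0.0374) with the same correction and -1.55 (adjusted p = 0.0226) without the first −IAA UTX-AID library at 0 h.

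IAA was followed by no called change of *Stra6* in BAP1-AID at any RA time. The log2 differences, +IAA against −IAA, were -0.08 ± 0.475 at 0 h, 0.42 ± 0.217 at 3 h, and -0.14 ± 0.204 at 6 h (adjusted p = 0.238 to 0.946). In UTX-AID at 0 h, the level was 0 in both +IAA libraries against 6 and 20 counts without IAA, which is at least 4.57-fold lower (adjusted p = 0.0756). In 5 of 7 other ways of fitting, adjusted p for this time was between 0.00294 and 0.0287. It was also under 0.05 without the first −IAA library at 0 h (0.0223) or without the first or the second −IAA library at 3 h (0.0313 and 0.0331). The +IAA libraries were also lower at 3 h (2.21 ± 0.187 against 3.96 ± 1.44 CPM, adjusted p = 0.484) and at nearly the same level at 6 h (4.19 ± 0.292 against 4.38 ± 1.08 CPM, adjusted p = 0.999). Averaged over the 3 times, *Stra6* was called lower with IAA in UTX-AID (adjusted p = 0.0103). Averaged over 3 and 6 h alone, a choice made after the data were seen, the log2 difference was -0.45 ± 0.250 (adjusted p = 0.518).

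The test of an altered RA response, the change from 0 h with IAA minus that without, called *Stra6* in neither clone. In BAP1-AID the difference was 0.49 ± 0.529 at 3 h (adjusted p = 0.997) and -0.06 ± 0.541 at 6 h (adjusted p = 0.998). In UTX-AID the fitted difference depends on the 2 libraries at 0, and adjusted p was 0.916 at 3 h and 1.00 at 6 h. Unadjusted p of the same edgeR test was 0.00107 at 3 h and 2.30e-04 at 6 h. In an edgeR fit without the filter on low counts, adjusted p at 6 h was 0.0297, so this outcome depends on the filter. *Stra6* overlaps *Ccdc33* and *Islr* on the other strand, and whether counting used the strand is not given in the sources used here. *Islr* shares 16 exonic bases with it and held 0 to 18 counts, and *Ccdc33*, with no shared exonic base, held 0 to 49 counts. Without IAA, *Ccdc33* was also higher at 6 h than at 0 h, at 35 and 18 against 7 and 4 counts in BAP1-AID. In UTX-AID these counts were 25 and 32 against 4 and 4. Neither change passed the edgeR test (adjusted p = 0.103 and 0.351). The part of such reads in the *Stra6* counts was not tested.

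*Crabp2* rose less than *Stra6*, from a much higher starting level. In −IAA BAP1-AID cells it was at 11.0 and 7.69 CPM at 0 h, 16.8 and 13.9 CPM at 3 h, and 18.0 and 16.0 CPM at 6 h. With IAA it was at 7.88 and 7.92 CPM at 0 h, 15.3 and 14.7 CPM at 3 h, and 19.1 and 14.6 CPM at 6 h. In both arms the libraries at 0 h were below all later ones, and those at 3 and 6 h overlapped. The log2 fold change at 6 h was 0.89 ± 0.170 without IAA (adjusted p = 0.00336) and 1.11 ± 0.172 with IAA (adjusted p = 7.08e-04), the latter past a 2-fold change.

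The 3 h values for *Crabp2* in BAP1-AID were 0.73 ± 0.170 without IAA (adjusted p = 0.0207) and 0.96 ± 0.172 with IAA (adjusted p = 0.00421). The first of these was 0.50 (adjusted p = 0.164) without the second −IAA library at 0 h and 0.59 (adjusted p = 0.0685) without the first −IAA library at 3 h. The second had adjusted p = 0.0538 or 0.0502 when one or the other +IAA library at 0 h was left out. Without the first −IAA library at 0 h, the changes without IAA were 1.00 at 3 h and 1.16 at 6 h, both past a 2-fold change, and without the first +IAA library at 6 h the change at 6 h with IAA was 0.89.

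In UTX-AID, *Crabp2* without IAA was at 4.86 and 5.02 CPM at 0 h, 5.81 and 8.24 CPM at 3 h, and 9.58 and 7.91 CPM at 6 h. It rose by 6 h, by 0.84 ± 0.210 on the log2 scale (adjusted p = 0.0224). Leaving out either library at 0 h gave adjusted p = 0.0943 or 0.104, and leaving out the first at 6 h gave 0.69 (adjusted p = 0.169). With IAA the level was 4.76 and 5.08 CPM at 0 h, 6.60 and 5.71 CPM at 3 h, and 7.48 and 5.09 CPM at 6 h, and the change at 6 h was 0.38 ± 0.211 (adjusted p = 0.404). The RA response with IAA minus that without was -0.46 ± 0.297 at 6 h (adjusted p = 1.00), so a difference between the arms of UTX-AID was not shown.

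*Crabp2* was higher in BAP1-AID than in UTX-AID before RA, at 9.36 ± 2.36 against 4.94 ± 0.111 CPM (log2 difference 0.92 ± 0.202, adjusted p = 4.79e-04). It was also higher at 6 h without IAA, at 17.0 ± 1.39 against 8.75 ± 1.18 CPM (0.96 ± 0.195, adjusted p = 2.20e-04). In neither comparison did the replicates overlap. The difference between the clones in the RA change was 0.20 ± 0.282 at 3 h and 0.04 ± 0.281 at 6 h (adjusted p = 0.959 and 1.00).

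*Crabp1*, the other RA-binding protein, did not pass the test in any RA comparison. Without IAA it was at 7.93 and 8.18 CPM at 0 h, 10.9 and 8.42 CPM at 3 h, and 8.98 and 7.90 CPM at 6 h in BAP1-AID. The corresponding values in UTX-AID were 5.59 and 5.94, 4.86 and 3.86, and 4.22 and 5.88 CPM. At 6 h the BAP1-AID log2 fold changes were 0.09 ± 0.174 without and -0.16 ± 0.176 with IAA, and those of UTX-AID -0.18 ± 0.207 and -0.11 ± 0.206 (adjusted p = 0.632 to 0.880).

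With IAA, *Crabp1* was lower in BAP1-AID, at 7.10 and 8.36 CPM at 0 h, 5.22 and 7.14 CPM at 3 h, and 7.17 and 6.43 CPM at 6 h. The arms overlapped at 0 h and did not overlap at 3 and 6 h. It fell with IAA at 3 h, by 0.65 ± 0.176 on the log2 scale (adjusted p = 0.0315), and averaged over the 3 times the difference was -0.36 ± 0.101 (adjusted p = 0.0160). At 3 h the difference was -0.45 (adjusted p = 0.184) without the first −IAA library and -0.43 (adjusted p = 0.248) without the first +IAA library, and the correction for GC content and length gave -0.43 (adjusted p = 0.139). The average had adjusted p = 0.0616 to 0.0647 without the first −IAA library at 6 h, the first +IAA library at 0 or 3 h, or the second +IAA library at 6 h, and with the correction it was -0.15 (adjusted p = 0.275). In UTX-AID the average was 0.07 ± 0.120 (adjusted p = 0.857), and the difference between the clones in this average was -0.40 ± 0.161 (adjusted p = 0.0687).

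The level of *Crabp1* was higher in BAP1-AID than in UTX-AID. The log2 difference without IAA was 0.48 ± 0.196 at 0 h (adjusted p = 0.0426) and 0.74 ± 0.197 at 6 h (adjusted p = 0.00296). The difference at 0 h had adjusted p = 0.0801 to 0.141 when any one of its 4 libraries was left out, and was 0.24 (adjusted p = 0.319) with the correction for GC content and length. That at 6 h was 0.52 (adjusted p = 0.0758) without the first −IAA UTX-AID library at 6 h.

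*Rdh11* was the most abundant member in every library, and its level did not follow RA. In −IAA BAP1-AID cells it was at 44.0 and 37.8 CPM at 0 h, 41.6 and 38.6 CPM at 3 h, and 40.0 and 39.6 CPM at 6 h, and in −IAA UTX-AID cells at 76.6 and 67.4, 69.2 and 59.7, and 68.3 and 69.2 CPM. No RA comparison passed the test, with log2 fold changes between -0.14 and 0.09 and standard errors of at most 0.0927. Every UTX-AID library, at 59.7 CPM or above, was higher than every BAP1-AID library, at 44.0 CPM or below. BAP1-AID minus UTX-AID was -0.81 ± 0.0900 at 0 h (adjusted p = 5.80e-08) and -0.79 ± 0.0901 at 6 h (adjusted p = 1.06e-07), both short of a 2-fold change.

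With IAA, *Rdh11* in BAP1-AID was at 35.03 and 32.8 CPM at 0 h, 36.2 and 32.1 CPM at 3 h, and 33.6 and 31.8 CPM at 6 h. At each of the 3 times both +IAA libraries were below both −IAA libraries. It fell with IAA at 0 h by 0.29 ± 0.0922 (adjusted p = 0.0476) and at 6 h by 0.31 ± 0.0924 (adjusted p = 0.0492), and the difference at 3 h was -0.24 ± 0.0923 (adjusted p = 0.117). Averaged over the times it fell by 0.28 ± 0.0533 (adjusted p = 0.00157), with adjusted p of at most 0.0116 when any library was left out. The values at single times no longer passed when most single libraries were left out, also those of other times, which share the estimate of the spread: adjusted p rose to as much as 0.326 at 0 h, without the first −IAA library at 0 h, and to 0.339 at 6 h, without the second +IAA library at 6 h. The size moved to -0.19 and -0.24 in these cases. In UTX-AID the average was 0.01 ± 0.0490 (adjusted p = 0.990), and the difference between the clones in the IAA effect was -0.26 ± 0.0734 (adjusted p = 0.00950). *Rdh11* shares 491 exonic bases with an annotated antisense RNA.

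*Rdh10* was lower at 3 h than at 0 or 6 h in BAP1-AID, in both arms. Without IAA it was at 6.89 and 7.22 CPM at 0 h, 4.001 and 5.89 CPM at 3 h, and 7.51 and 8.88 CPM at 6 h. With IAA it was at 8.71 and 10.1 CPM at 0 h, 5.70 and 6.41 CPM at 3 h, and 8.09 and 7.91 CPM at 6 h. The groups did not overlap, yet no change passed the edgeR test as fitted here: the log2 fold change from 0 to 3 h was -0.49 ± 0.177 without IAA (adjusted p = 0.140) and -0.61 ± 0.174 with IAA (adjusted p = 0.0646), and that from 3 to 6 h was 0.74 ± 0.176 without IAA (adjusted p = 0.0572) and 0.39 ± 0.175 with IAA (adjusted p = 0.283). The change from 3 to 6 h without IAA and that from 0 to 3 h with IAA did pass under DESeq2 (adjusted p = 0.0139 and 0.0375) and with the correction for GC content and length (0.0465 and 0.0297). Blocking on replicate number gave adjusted p = 0.0299 and 0.0316, and the block with the correction 0.0234 and 0.0143. Without the second −IAA library at 3 h, which shares the estimate of the spread, adjusted p was 0.00156 for the change from 3 to 6 h without IAA (log2 fold change 1.03) and 0.00980 for that from 0 to 3 h with IAA. Without the first −IAA library at 3 h, the latter was 0.0124.

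In UTX-AID, *Rdh10* was between 4.21 and 6.40 CPM in every library and no RA change exceeded 0.15 in size on the log2 scale. At 6 h without IAA it was higher in BAP1-AID, at 8.19 ± 0.963 against 5.64 ± 0.707 CPM (0.54 ± 0.199, adjusted p = 0.0265). This difference was 0.42 (adjusted p = 0.185) without the second −IAA BAP1-AID library at 6 h, 0.40 (adjusted p = 0.214) without the second −IAA UTX-AID library at 6 h, and 0.28 (adjusted p = 0.255) with the correction for GC content and length. The average difference of *Rdh10* with IAA was 0.21 ± 0.101 in BAP1-AID (adjusted p = 0.133) and -0.18 ± 0.122 in UTX-AID (adjusted p = 0.526). In BAP1-AID it was 0.29 (adjusted p = 0.0387) with the correction and 0.33 (adjusted p = 0.00937) without the second −IAA library at 3 h. The difference between the clones in this average was 0.41 ± 0.163 (adjusted p = 0.0713), and 0.49 (adjusted p = 0.0330) with the correction. It was also under the threshold without the second −IAA BAP1-AID library at 3 h (0.51, adjusted p = 0.0167), the second −IAA UTX-AID library at 0 h (0.49, adjusted p = 0.0348), or the first −IAA UTX-AID library at 3 h (0.49, adjusted p = 0.0313).

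**Figure D2:**
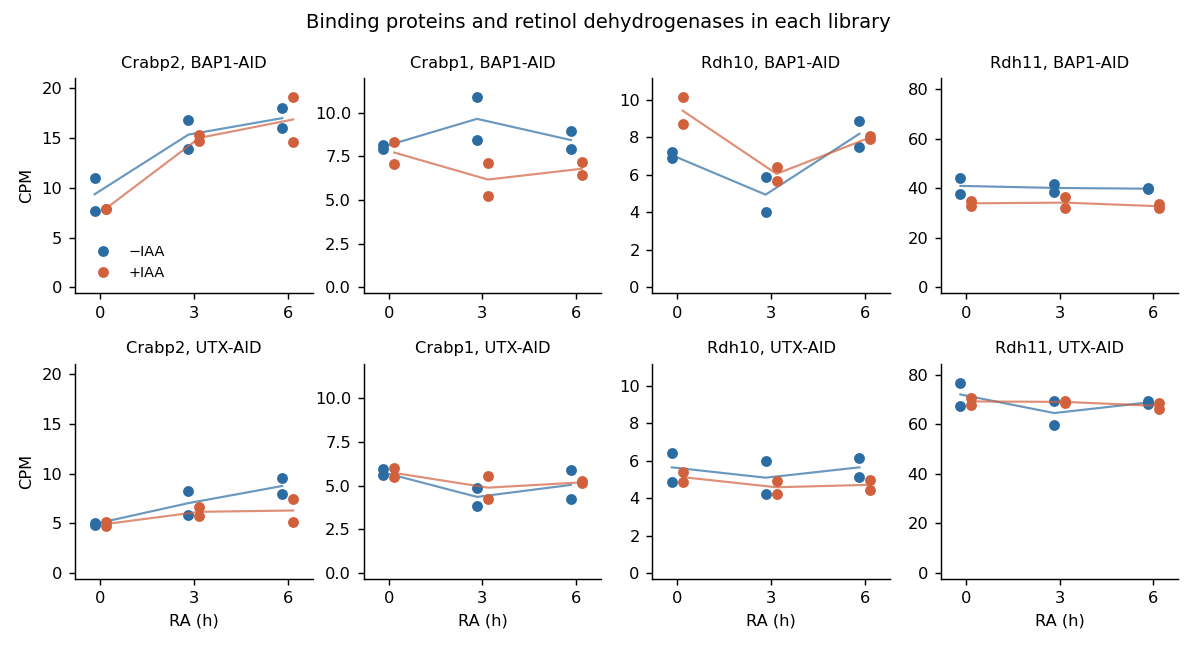
Level in CPM (vertical axes, from 0) against hours of RA (horizontal axes) of *Crabp2*, *Crabp1*, *Rdh10*, and *Rdh11* in BAP1-AID (top) and UTX-AID (bottom), one point per library, lines through the means of 2 replicates, −IAA in blue and +IAA in orange. *Crabp2* lies higher at 3 and 6 h than at 0 h in BAP1-AID, *Rdh10* is lower at 3 h in BAP1-AID, and *Rdh11* lies at 59.7 CPM or above in UTX-AID and at 44.0 CPM or below in BAP1-AID.

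The retinol carrier gene *Rbp4* was close to the limit of detection, with 3 to 42 counts per library. Without IAA it was at 0.289 and 0.296 CPM at 0 h and 0.623 and 0.488 CPM at 6 h in BAP1-AID, and at 0.125 and 0.206 CPM at 0 h and 0.199 and 0.156 CPM at 6 h in UTX-AID. The log2 fold changes at 6 h without IAA were 0.95 ± 0.881 and 0.12 ± 0.998 (adjusted p = 0.557 and 0.979). In UTX-AID at 0 h, both +IAA libraries (42 and 35 counts) were above both −IAA libraries (6 and 10 counts), a log2 difference of 2.16 ± 0.981 that did not pass the test (adjusted p = 0.604). The average of this difference over the 3 times was 1.499 ± 0.561 (adjusted p = 0.201). *Rbp4* shares 222 exonic bases with *Ffar4* on the other strand, which held 0 to 34 counts.

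*Aldh1a2*, which encodes the main RA-forming enzyme of the early embryo, was detected in all 24 libraries at 23 to 66 counts. It was between 0.443 and 1.16 CPM in BAP1-AID and between 0.762 and 1.46 CPM in UTX-AID. No comparison passed the test. At 6 h against 0 h BAP1-AID had log2 fold changes of 0.19 ± 0.536 and 0.17 ± 0.547, and UTX-AID had -0.12 ± 0.396 and -0.44 ± 0.391, without and with IAA.

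*Aldh1a1* and *Aldh1a3*, the other RA-forming enzymes, were at 0 in 15 and 13 of the 24 libraries. Their highest counts were 14 and 18, and neither passed the filter on low counts in the BAP1-AID fit. They were tested in UTX-AID and between the clones, where 0 comparisons passed. *Aldh1a1* in BAP1-AID held 14 and 6, 9 and 0, and 10 and 10 counts at 0, 3, and 6 h with IAA, against 0 and 0, 3 and 0, and 0 and 0 without IAA. Without the filter, its difference averaged over the 3 times was past the criteria (adjusted p = 0.0425), as it was with all 24 libraries in one fit (adjusted p = 0.0465). In UTX-AID, *Aldh1a1* held 0 to 10 counts, with 0 in all 4 libraries at 0 h.

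*Aldh1a3* held 9 and 0 counts at 0 h, 18 and 3 at 3 h, and 0 and 0 at 6 h without IAA in BAP1-AID, and 0 to 4 counts with IAA. In UTX-AID with IAA it held 6 and 17 counts at 0 h and 0 in all 4 later libraries, and without IAA 0 and 4, 7 and 0, and 9 and 8 counts. The fall with IAA to 6 h had an adjusted p of 0.293.

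**Figure D3:**
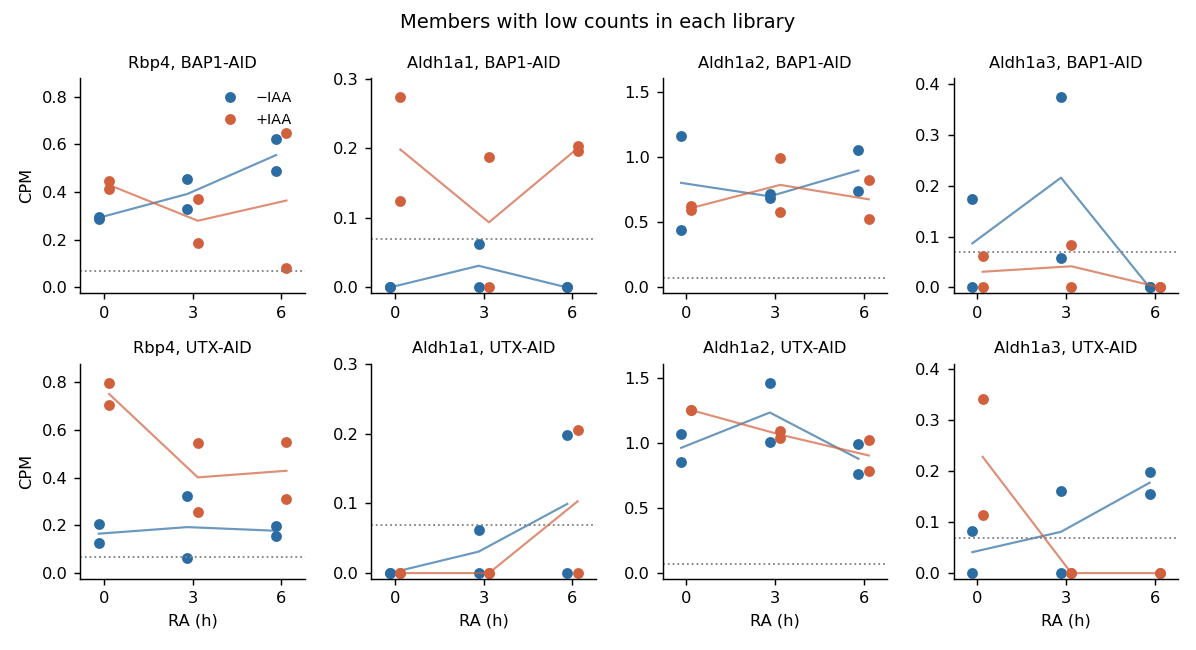
Level in CPM (vertical axes) against hours of RA (horizontal axes) of the 4 members with low counts, *Rbp4*, *Aldh1a1*, *Aldh1a2*, and *Aldh1a3*, one point per library, lines through the means of 2 replicates, −IAA in blue and +IAA in orange. The dotted line marks 0.0695 CPM, the highest level that 3 counts equalled in any library, and only *Aldh1a2* lies above it in all 24 libraries.

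Calls required both an adjusted p under 0.05 and a change past 2-fold. Of the 7 members tested in BAP1-AID, *Stra6* alone was called after RA without IAA, at 3 h (2.25% of 15695 genes were called), at 6 h (4.10%), and at 6 h against 3 h (0.382%). With IAA, *Stra6* was called at 3 h (2.41% of all genes) and at 6 h against 3 h (0.624%), and *Stra6* and *Crabp2* at 6 h (4.51%). Of the 9 members tested in UTX-AID, *Stra6* alone was called without IAA at 3 h (1.51% of 16268 genes) and at 6 h (1.91%), and with IAA at 3 h (1.26%) and at 6 h (2.0%). From 3 to 6 h, 0 members were called there without IAA (0.0492% of all genes) or with IAA (0.0615%), with 0 and 1 members at an unadjusted p under 0.05. At an adjusted p under 0.05 without the size criterion, 2 members passed in BAP1-AID without IAA at 3 h (7.37% of all genes) and at 6 h (15.9%) and with IAA at 3 h (6.52%), and 2 in UTX-AID without IAA at 6 h (6.90%), in each case *Stra6* and *Crabp2*. The median log2 fold change of the tested members at 6 h without IAA was 0.24 for BAP1-AID against 0.02 over all genes, and 0.12 for UTX-AID against -0.003.

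For IAA, 0 of 7 members were called in BAP1-AID at 0 h (1.15% of all genes), 3 h (0.892%), or 6 h (1.61%), or averaged over the times (1.51%). The counts at an unadjusted p under 0.05 were 2, 2, 1, and 2 members. Without the size criterion, 1 member passed at 0 h (18.5% of all genes), 1 at 3 h (13.3%), 1 at 6 h (12.5%), and 2 on average (36.1%), shares near those of all genes. In UTX-AID, 0 of 9 members were called at 0 h (0.0184%), 3 h (0.0430%), or 6 h (0.0123%), or averaged over 3 and 6 h (0.0615%), with 2, 1, 1, and 2 members at an unadjusted p under 0.05, and *Stra6* was called averaged over the 3 times (0.135%). An altered RA response was called for 0 members in BAP1-AID at 3 h (0 genes called) and at 6 h (0.0255%), and for 0 members in UTX-AID at 3 h (0.0123%) and at 6 h (0 genes called). The members at an unadjusted p under 0.05 in these 4 comparisons numbered 1, 0, 1, and 2. Where 0 genes were called, 1176 genes in BAP1-AID at 3 h and 558 in UTX-AID at 6 h had an unadjusted p under 0.05, and DESeq2 called 6 genes and 1 gene. In all the comparisons in which 0 members were called, DESeq2 called 0 as well, except for *Stra6* in UTX-AID at 0 h (adjusted p = 0.0139).

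Between the clones without IAA, 0 of 9 members were called at 0 h, where 20.9% of 16816 genes were, and *Stra6* was called at 6 h, where 19.6% were. Without the size criterion 3 members passed at 0 h and 5 at 6 h, against 52.6% and 51.7% of all genes. The RA change differed by the criteria for 0 members at 3 h (0.0833% of genes), at 6 h (0.226%), and from 3 to 6 h (0.00595%), with 1 member at an unadjusted p under 0.05 in each. The IAA effect differed for *Stra6* averaged over the 3 times (2.22%) and for 0 members averaged over 3 and 6 h (1.86%). At an adjusted p under 0.05 alone, 2 members passed in each of these averages, against 25.9% and 17.8% of all genes.

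**Figure D4:**
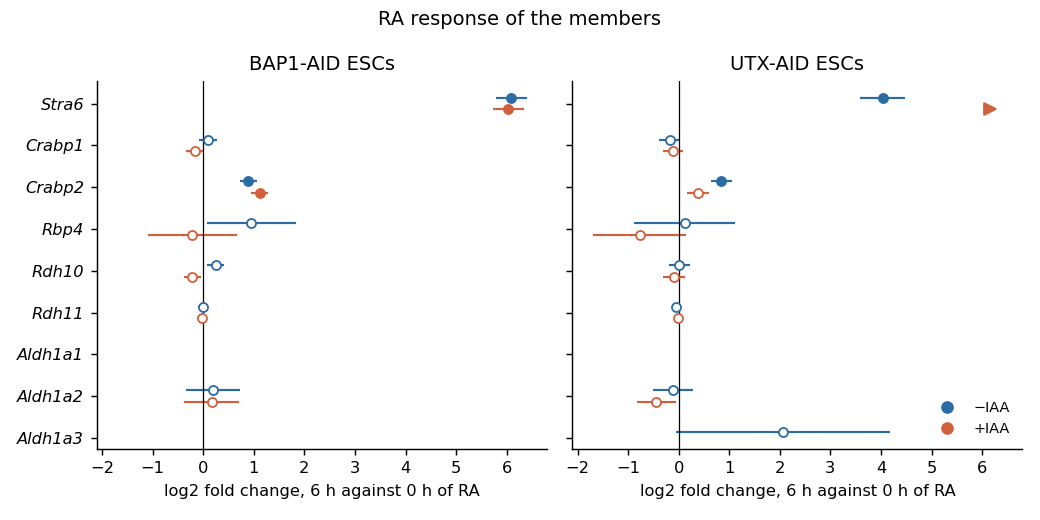
Log2 fold change at 6 h against 0 h of RA (horizontal axes) for each member (vertical axis) in BAP1-AID (left) and UTX-AID (right), −IAA in blue and +IAA in orange, with bars of 1 standard error and filled symbols at an adjusted p under 0.05. The triangle for *Stra6* in +IAA UTX-AID is the log2 of a lower bound, 71.3-fold, against 0 counts, and members or arms that were not tested or were at 0 in a group near the detection limit are not drawn.

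Beside the members, 44 further genes of retinoid metabolism and signaling were listed, and the filter on low counts left 28 of them in BAP1-AID and 31 in UTX-AID. Of these, 7 were called higher and 0 lower at 6 h in BAP1-AID in each arm, and 6 without IAA and 7 with IAA higher and 0 lower in UTX-AID. Genes called in at least 1 RA comparison without IAA in both clones included all 3 listed RA-degrading enzymes, *Cyp26a1*, *Cyp26b1*, and *Cyp26c1*, the retinaldehyde reductase gene *Dhrs3*, and the RA receptor genes *Rara* and *Rarb*. Of 19 listed retinol dehydrogenases and reductases, *Dhrs3* alone was called in both clones, and *Rara* was called at 3 h but not at 6 h in −IAA UTX-AID cells (log2 fold change at 6 h 0.78 ± 0.0983, adjusted p = 7.86e-05). The median log2 fold change of the tested list genes at 6 h without IAA was 0.14 for BAP1-AID, against 0.02 over all genes. For UTX-AID it was 0.04, against -0.003.

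*Cyp26a1* rose most in level, from 1.16 ± 0.104 to 479 ± 5.16 CPM at 6 h in −IAA BAP1-AID cells (log2 fold change 8.71 ± 0.0954, adjusted p = 5.24e-14) and from 0.360 ± 0.509 to 124.5 ± 5.17 CPM in −IAA UTX-AID cells (8.43 ± 0.316, adjusted p = 1.95e-10). *Cyp26b1* reached 17.1 ± 1.71 and 8.33 ± 2.72 CPM, and *Cyp26c1*, at 0 before RA in all 8 libraries, reached 2.62 ± 0.0994 and 1.55 ± 0.149 CPM. *Dhrs3* went from 2.45 ± 0.772 to 44.7 ± 2.57 CPM in BAP1-AID and from 1.15 ± 0.0323 to 13.7 ± 0.351 CPM in UTX-AID. *Rara* rose from 51.4 ± 2.11 to 119.5 ± 3.85 CPM and from 31.9 ± 2.64 to 53.96 ± 2.001 CPM, and *Rarb*, at 3 counts or fewer before RA in −IAA BAP1-AID cells, reached 14.3 ± 1.53 CPM there and 4.81 ± 0.126 CPM in UTX-AID. In each of these genes the replicates at 6 h were above those at 0 h in both clones.

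**Figure D5:**
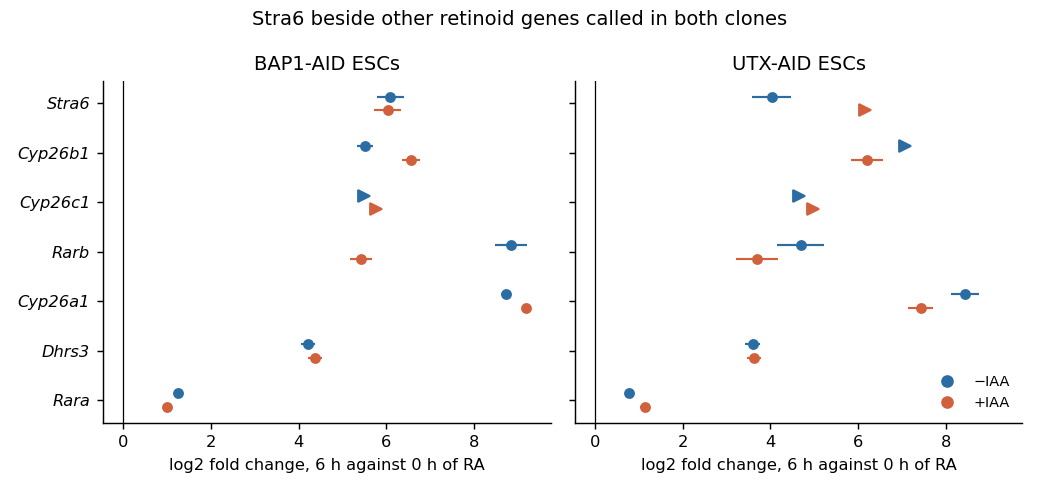
Log2 fold change at 6 h against 0 h of RA (horizontal axes) for *Stra6* and 6 other retinoid genes called in both clones without IAA, in BAP1-AID (left) and UTX-AID (right), −IAA in blue and +IAA in orange, with bars of 1 standard error. Triangles are the log2 of a lower bound where all libraries at 0 h held 0 counts, and every symbol lies above 0 in both clones.

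The genes whose pattern was most like that of *Stra6* were *Fam81a* (Pearson's r = 0.993) and *Gdpd5* (r = 0.991), out of 12329 genes with a mean above 1 CPM. The correlation runs over the 12 group means of log2 CPM, with 0.5 added to each CPM, after each clone's mean was subtracted. These means share the rise with RA. *Stra6* was below 0.5 CPM in every library at 0 h, so its values there rest largely on the amount added. *Gdpd5* went from 0.438 ± 0.00625 to 3.48 ± 0.00420 and 10.5 ± 0.0234 CPM at 0, 3, and 6 h in −IAA BAP1-AID cells, and from 0.726 ± 0.300 to 4.58 ± 1.05 and 6.71 ± 0.0936 CPM in −IAA UTX-AID cells. *Fam81a* started higher, at 1.60 ± 0.303 CPM in BAP1-AID and 4.01 ± 0.582 CPM in UTX-AID, and reached 10.1 ± 1.86 and 15.4 ± 1.94 CPM at 6 h.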

How the data were processed

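Total RNA from mouse ESCs was extracted with TRIzol and libraries were made from polyadenylated RNA with oligo-dT beads. Alignment by the authors used HISAT2 2.2.1 and the mm39 genome, followed by Samtools 1.19. Their deposited estimated counts per gene came from StringTie 2.2.1, which derives counts from coverage. The deposited estimated counts were whole numbers, not normalized, and no rounding was needed. The annotation and strandedness are not given in the sources used here. All 24 columns were used, with groups from the library labels.

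Counts were analyzed in R 4.3.3 with edgeR 4.0.16 (TMM, filterByExpr at min.count 10 and min.total.count 15, quasi-likelihood test, two-sided). The 12 libraries of a clone were fitted together (15695 genes tested in BAP1-AID, 16268 in UTX-AID), and all 24 libraries (16816 genes) for differences between clones. Adjusted p-values are Benjamini-Hochberg values over all genes of the fit, and the criteria for a call, adjusted p under 0.05 plus a change beyond 1 on the log2 scale, are those the authors used with DESeq2. Labels do not say that replicates were separate cultures, so p-values measure the spread between libraries, which may be technical. CPM used TMM factors of all 24 libraries. Levels per kilobase used the union of exons in GENCODE vM39. Fits were tested on simulated data. The members, gene lists, and tests were chosen with earlier results of these data known. Named genes were the 9 members, other retinoid genes called in both clones without IAA (up to 10), and known RA targets. The 2 genes most like each member called at 6 h without IAA in either clone were also named. Some named genes and the tagged genes *Bap1* and *Kdm6a* are not reported here, and protein sequences of the members were not analysed. Alternatives were DESeq2 1.42.0, RLE factors, no filter, the replicate number as a block, a correction for GC content and length (splines with 5 degrees of freedom as offsets), alone and with the block, all 24 libraries in one fit, the longest transcript as length, and each library left out. Averages over 3 and 6 h, the clone difference in the averaged IAA effect, and the clone differences at 6 h and from 3 to 6 h were added after the data were seen.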

Additional observations from a re-analysis of the deposited data

Results flagged for a closer look

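The difference between the clones in the IAA effect, BAP1-AID minus UTX-AID, had an adjusted p under 0.05 for 3 members, counted over both averages. The test was edgeR's quasi-likelihood test of the difference itself. In each average 2 of 9 members passed, against 25.9% of all genes over the 3 times and 17.8% over 3 and 6 h. The members thus passed at about the rate of all genes. For *Stra6*, averaged over the 3 RA times, the difference was 2.63 ± 0.541 on the log2 scale (adjusted p = 9.07e-04). The fitted size depends on the 2 +IAA UTX-AID libraries at 0 h, which held 0 counts, and averaged over 3 and 6 h the difference was 0.60 ± 0.305 (adjusted p = 0.193). For *Rdh11*, the difference was -0.26 ± 0.0734 averaged over the 3 times (adjusted p = 0.00950) and -0.29 ± 0.0899 over 3 and 6 h (adjusted p = 0.0280). The latter had adjusted p between 0.0104 and 0.115 over the 24 fits that each left out 1 library, and was past 0.05 in 10 of them. For *Crabp1*, it was -0.58 ± 0.197 over 3 and 6 h (adjusted p = 0.0446) and -0.40 ± 0.161 over the 3 times (adjusted p = 0.0687). The first *Crabp1* value was past 0.05 in 19 of 24 fits that left out 1 library and with the correction for GC content and length (-0.37, adjusted p = 0.232). The parts that clone and tagged gene play in these differences cannot be told apart.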

How the results depend on the processing

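Of 264 values for members, 33 had an adjusted p under 0.05. None of these 33 changed sign under the other fits. DESeq2 kept 31 and added 3, RLE factors kept 29 and added 0, no filter kept 31 and added 2, and the correction for GC content and length kept 27 and added 5, or 8 with the block. Those lost were *Crabp1* between the clones at 0 h and in the IAA effect over 3 and 6 h (DESeq2, RLE, and the correction), *Rdh11* with IAA in BAP1-AID at 0 and 6 h (RLE and no filter), and, with the correction, *Crabp1* with IAA in BAP1-AID at 3 h and on average and *Stra6* and *Rdh10* between the clones at 6 h. Those added were values of *Rdh10* and *Stra6*, and with the correction and the block *Rdh11* with IAA in BAP1-AID at 3 h (-0.35, adjusted p = 0.0240) and *Rdh10* there at 0 h (0.52, adjusted p = 0.0371). All 24 libraries in one fit kept 21 of 21 and added 1.

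The number of members called was 0 for the averaged IAA effect in BAP1-AID, and 1 (*Aldh1a1*) without the filter or with all 24 libraries in one fit. It was 0 for IAA in UTX-AID at 0 h and 1 (*Stra6*) under DESeq2, without the filter, with the replicate block, with the block and the correction, and with all 24 libraries in one fit. It was 0 for the altered RA response of UTX-AID at 6 h and 1 (*Stra6*) without the filter. With the correction, alone or with the block, it went from 0 to 1 between the clones at 0 h and from 1 to 0 at 6 h, both *Stra6*. The causes were not tested.

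Leaving out 1 library gave 1 to 2 members called for each RA comparison of −IAA BAP1-AID cells and for the +IAA change from 0 to 6 h, and 0 to 1 for the +IAA change from 3 to 6 h. The ranges were 0 to 1 for the averaged IAA effect in BAP1-AID, for IAA in UTX-AID at 0 h, and between the clones at 0 h, 0 to 2 between the clones at 6 h, and 1 to 2 for the averaged clone difference in the IAA effect.

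The replicate numbers share no stated batch. The difference between the replicates of a group, taken per gene and in numbered order, was correlated between groups. Over 15 pairs of groups in each clone, the correlation was -0.0538 to 0.280 in BAP1-AID and 0.0274 to 0.256 in UTX-AID. The replicate block kept all 33 values and added 3: *Rdh10* in BAP1-AID from 3 to 6 h without IAA (0.75, adjusted p = 0.0299) and from 0 to 3 h with IAA (-0.61, adjusted p = 0.0316), and *Stra6* in UTX-AID with IAA at 0 h (adjusted p = 0.0267).

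Counts over all genes moved by more than 1.5 times in these cases. DESeq2 called 99 against 60 genes from 3 to 6 h in −IAA and 149 against 98 in +IAA BAP1-AID cells, 359 against 237 for the averaged IAA effect there, and 43 against 14, 90 against 38, and 19 against 1 for clone differences in the RA change at 3 h, at 6 h, and from 3 to 6 h. The correction called 107, 81, and 97 genes for IAA in BAP1-AID at 0, 3, and 6 h against 180, 140, and 252, and 193 against 313 for the clone difference averaged over 3 and 6 h. With the block added it called 98, 83, and 88 for IAA in BAP1-AID, 144 for the average, and 191 for the clone difference. One fit of all libraries called 271 and 216 at 0 and 3 h, and 6 against 0 and 16 against 4 for the altered RA response in BAP1-AID. For IAA in UTX-AID at 0, 3, and 6 h, 3, 7, and 2 genes were called, against 16, 20, and 8 without the filter and 12, 15, and 6 with the block. From 3 to 6 h in UTX-AID, 8 and 10 genes were called without and with IAA, against 24 and 26 without the filter, 16 and 17 with the block, alone or with the correction, 20 with IAA under DESeq2, and 16 without IAA in the one fit. The other counts for IAA in UTX-AID were 15 and 11 (DESeq2, 0 and 3 h), 12, 17, and 5 (block with correction), and 9 and 18 (one fit, 0 and 3 h), and for 3 and 6 h averaged 19 (no filter), 18 (block), and 17 (with correction) against 10. For its altered RA response they were 5 (no filter) and 0 (one fit) against 2 at 3 h, and 1 (DESeq2), 9 (no filter), and 2 (block, alone or with correction) against 0 at 6 h, and in BAP1-AID at 6 h 8 (DESeq2) and 7 (block with correction) against 4. DESeq2 called 6 against 0 there at 3 h. Clone differences in the RA change numbered 29 at 3 h and 5 from 3 to 6 h without the filter, and 2 in the latter with the block. Leaving out the second −IAA BAP1-AID library at 3 h raised the 60 to 193.

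Counts of *Rbp4*, *Aldh1a1*, and *Aldh1a3* stayed at 42 or fewer, which limits the precision of their values.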
